A study of Mus musculus with 11 samples.

Results

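The genes that encode the proteins of the cytosolic ribosome were followed in regulatory T cells (Tregs) sorted from mouse tumors and spleens. They were taken by symbol, as every listed gene named Rpl or Rps followed by a subunit number or by a, p0, p1 or p2. Symbols of processed pseudogenes and of kinases were left out. The rule found 80 genes among the 14604 listed, 49 of the large subunit and 31 of the small subunit. Rps12, Rps27, Rpl3l, Rpl10l and Rpl39l are not among the rows used here.

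The cells came from mice implanted with MC38, a mouse colon adenocarcinoma cell line. Tregs that were CD4+, GITR+ and CD25+ were sorted from tumors and from spleens, their RNA was depleted of ribosomal RNA and it was sequenced. Wild-type (WT) mice carried CD177flox/flox, and knockout (KO) mice carried CD177flox/flox/FOXP3-CreYFP, in which Cre is driven by Foxp3 and so acts in Tregs. The 11 libraries were 3 of WT spleen, 3 of KO spleen, 3 of WT tumor and 2 of KO tumor. Both genotypes thus carried the floxed allele and the same tumor, and the deletion could not be checked because Cd177 is not listed. The spleens were taken from the tumor-bearing mice themselves, but the labels tie no library to an animal, so p-values measure only the spread between these libraries. A bulk value also cannot separate fewer cells of a type from less RNA in each cell.

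A ribosome is built from ribosomal RNA and one copy of most of these proteins, with the small subunit reading the message and the large subunit joining amino acids. Genes of both subunits are among the most strongly transcribed of any cell. Many of their messages begin with a cytosine followed by a run of pyrimidines, the 5′ terminal oligopyrimidine (TOP) motif. Through this motif, mTORC1 and the RNA-binding protein LARP1 control their translation together. Naive lymphocytes enlarge their ribosome pool when they are activated.

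Promoters are shown first because the TOP start and a core that ETS factors such as GABPA bind are known features of this gene family. RefSeq start sites on GRCm38.p6 were found for 59 of the 80 members, within windows of 300 bases. A cytosine and at least 4 further pyrimidines at the annotated first base were present in 12 of these 59 members, 20.3%, against 3.01% of all 27025 genes with a promoter entry. Runs that begin beside the annotated start were not counted, such as the one just after it in the Rpl12 window below. The share therefore also depends on the start annotation. The 8 letters CCGGAAGT, or ACTTCCGG on the other strand, were present in 12 members, also 20.3%, against 4.31% of all genes. The searches can overlap, since ACTTCCGG itself holds a cytosine followed by 4 pyrimidines, and 3 members matched both. The windows below run from 10 bases before the start to 20 bases from it. Capitals mark the pyrimidine run at the start or the ETS core. Rps27l rose most in tumor, Rpl31 is a large-subunit gene that rose, and Rpl11 partners Rpl5. Rpl35, Rpl28 and Rps6 begin with a pyrimidine run, and Rpl5 and Rpl12 were the members called lower and matched neither search in these letters.
Rps27l, chr9:66946076-66946105, plus strand: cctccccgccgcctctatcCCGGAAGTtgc
Rpl31, chr1:39367841-39367870, plus strand: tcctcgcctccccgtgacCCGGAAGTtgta
Rpl11, chr4:136053374-136053403, minus strand: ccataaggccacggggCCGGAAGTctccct
Rpl35, chr2:39005112-39005141, minus strand: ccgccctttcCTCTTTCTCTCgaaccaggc
Rpl28, chr7:4792955-4792984, plus strand: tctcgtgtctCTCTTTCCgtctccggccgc
Rps6, chr4:86857348-86857377, minus strand: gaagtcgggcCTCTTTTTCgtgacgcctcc
Rpl5, chr5:107900518-107900547, plus strand: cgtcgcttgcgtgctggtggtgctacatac
Rpl12, chr2:32961702-32961731, plus strand: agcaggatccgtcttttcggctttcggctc

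Values are log2(n + 1), where n is the deposited amount per gene, whose scaling is not stated. The summed n of a library was 712832 to 844331 in spleen and 1103159 to 1304548 in tumor. A single short pseudogene row, Gm12896, held 31.4% to 42.5% of it in spleen and 31.4% to 41.3% in tumor. The depth in reads behind a value is unknown. Treg and T cell markers were present in both tissues (summed log2 value of 10 genes, 11.09 to 11.28 in spleen and 10.63 to 11.32 in tumor), but 6 of the 10 were called lower in tumor and 2 higher (median -0.41). Foxp3 was at -0.85, Ikzf2 at -1.09 and Cd3e at -0.62. The 2 higher were Tnfrsf18 at 1.08 and Ctla4 at 0.57, while Il2ra (-0.27) and Cd3g (-0.03) were not called. Of 9 CD8 T and NK cell markers 6 were higher in tumor and 1 lower, with Gzmb at 5.43 and Cd8a at 3.99. Of 7 B cell markers 0 were higher and 5 lower by limma, and of 8 erythroid and platelet markers 1 was higher and 7 lower. Markers of myeloid cells (16 of 18 genes listed) summed to 8.31 to 9.27 in spleen and 13.78 to 14.40 in tumor, with all 16 higher in tumor. Markers of fibroblasts (6 of 9 listed, Pdgfra, Dcn and Lum not) summed to 2.34 to 2.64 in spleen and 9.21 to 10.36 in tumor, with 5 of 6 higher. The myeloid marker Lyz2 was 3.83 to 6.87 in spleen and 12.02 to 12.73 in tumor. Proliferation genes summed to 8.47 to 8.76 in spleen and 9.21 to 9.58 in tumor, with 9 of 10 higher. The part of these in any tissue difference given here was not tested.

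As deposited, the ribosomal protein genes were modestly higher in tumor Tregs than in spleen Tregs. The comparison asked which genes differ between tumor-infiltrating and splenic Tregs. By limma with Benjamini-Hochberg adjustment (adjusted p below 0.05), 62 of 80 members were higher in tumor and 2 were lower, while 16 did not pass. Of all 13897 genes tested, 43.1% were higher and 35.9% were lower. The median member difference was 0.35 on the log2 scale, against 0.08 over all genes tested. In 49 members every tumor library lay above every spleen library, as it did in 35.2% of all genes. In 1 member, Rpl5, every tumor library lay below, as it did in 28.4% of all genes. The other 30 members overlapped between the tissues.

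**Figure D1:**
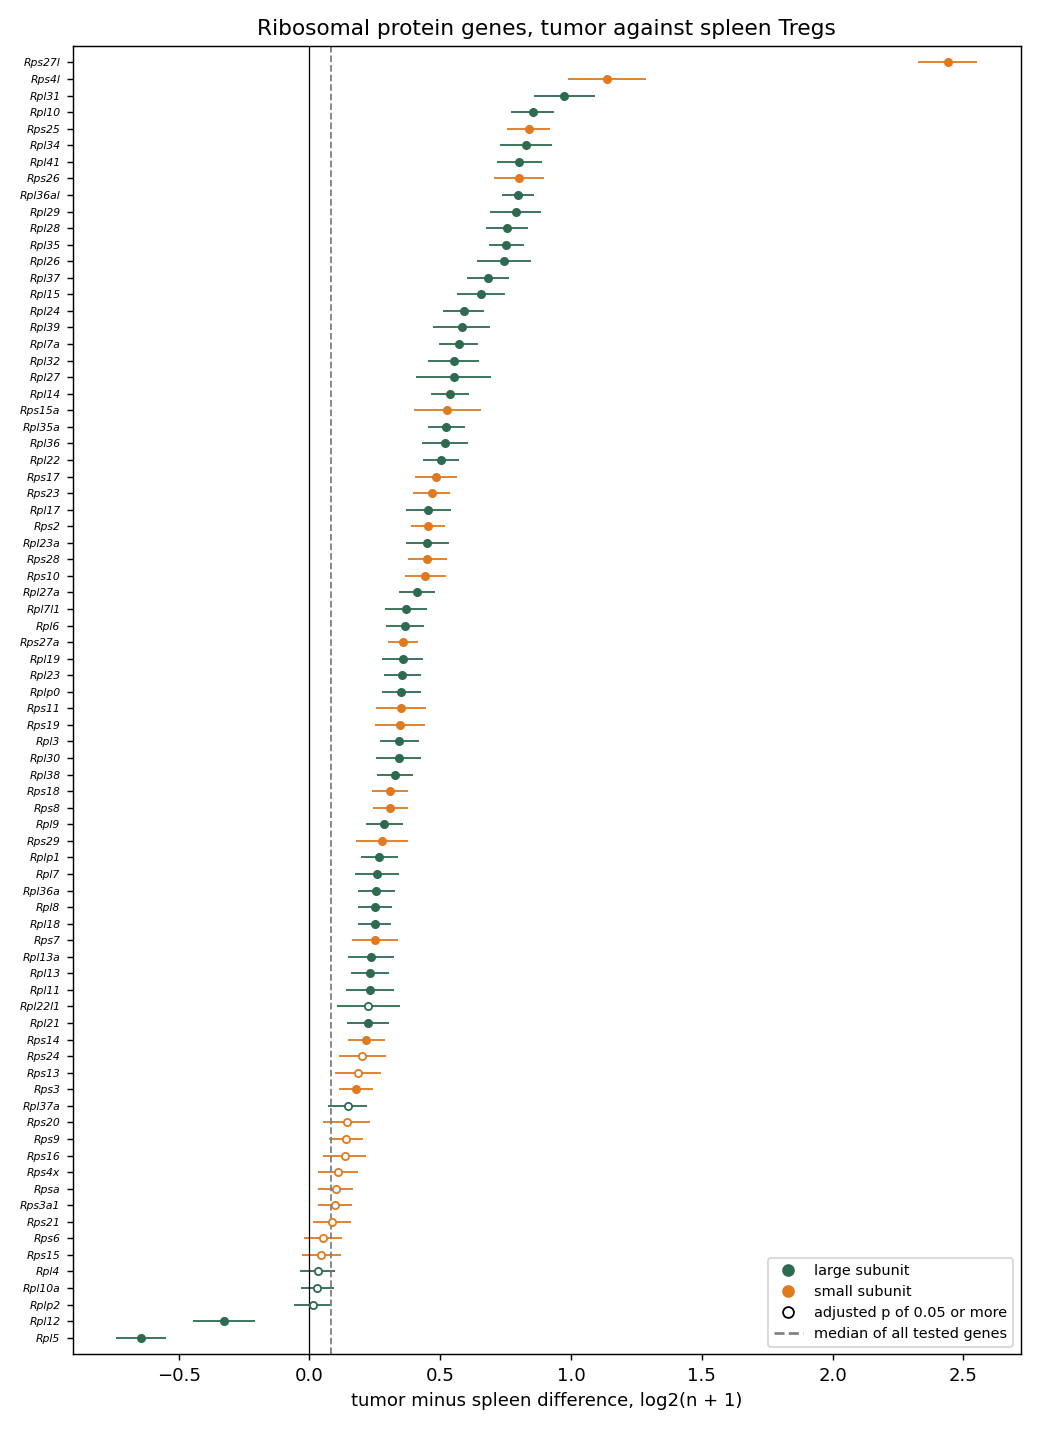
Tumor minus spleen difference of 78 of the 80 members in log2(n + 1), with its standard error as the bar (6 spleen and 5 tumor libraries), ordered by size. Filled points passed an adjusted p of 0.05. Rps27l stands alone at 2.44, most members lie between 0 and 1, and Rpl12 and Rpl5 lie below 0. With library totals set equal, most points shift below 0.

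The direction of this shift depended on how the libraries were scaled. With library medians set equal, 32 members were higher and 5 lower (34.8% and 44.8% of all genes), and the member median was 0.13 against -0.14 over all genes. With library totals set equal, 4 were higher and 47 lower, against 23.6% and 56.3% of all genes (member median -0.28, all genes -0.44). After quantile normalization, 3 were higher and 63 lower, against 33.3% and 45.8% of all genes (member median -0.38, all genes -0.16). Over all genes, 54.5% of calls were higher in tumor as deposited, 43.7% with equal medians, 29.6% with equal totals and 42.1% after quantile normalization. Members therefore lay above the median of all genes by 0.27 as deposited and with equal medians, by 0.16 with equal totals, and below it by 0.23 after quantile normalization. In 71 of 80 members the sign of the difference changed under at least 1 of these scalings.

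**Figure D2:**
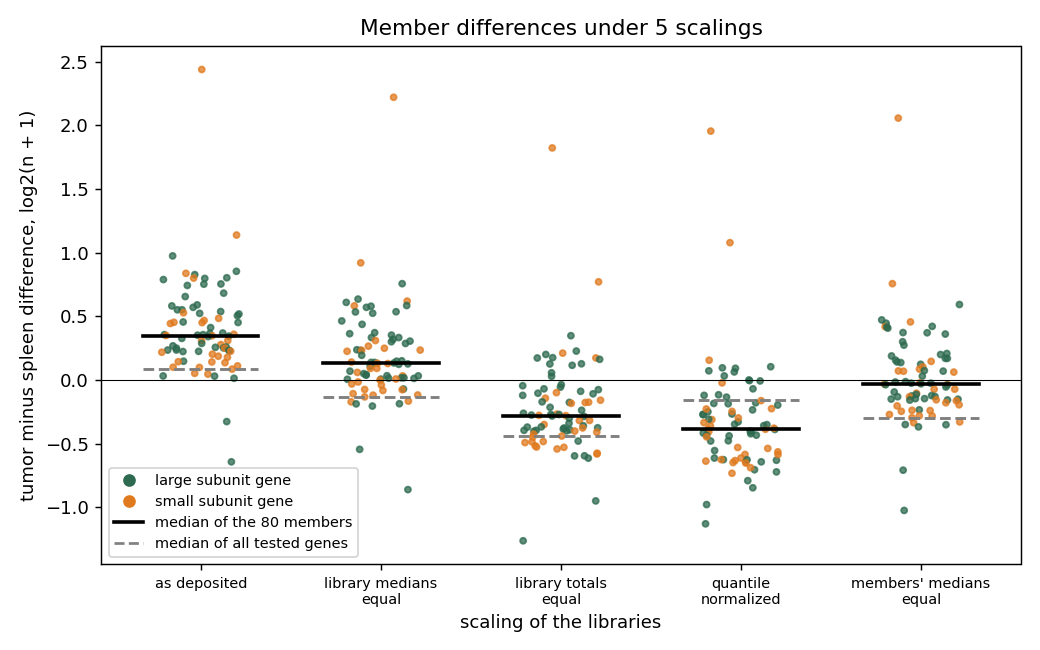
Tumor minus spleen difference of the 80 members (points, log2(n + 1)) under 5 scalings of the same libraries, with the median of the members (solid line) and of all tested genes (dashed line). The member median moves from 0.35 as deposited to -0.28 with equal totals and -0.38 after quantile normalization, while Rps27l stays at the top.

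Added up, the members made a larger sum in tumor and a smaller share of it. Their summed n was 52827 to 64620 in the spleen libraries and 72591 to 79955 in the tumor libraries, with no overlap. As a share of all n, they took 7.57% ± 0.647 of a spleen library (SD, n = 6) and 6.27% ± 0.257 of a tumor library (SD, n = 5). The highest tumor library, at 6.67%, lay below the lowest spleen library, at 6.76%. With Gm12896 taken out of the total the shares were 12.1% ± 0.585 in spleen and 10.1% ± 0.445 in tumor.

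The spleen libraries were not alike. Library 1 of WT spleen held the lowest spleen value of 54 members, and library 2 of WT spleen held the highest of 57. Their median member deviations from the spleen mean were -0.17 and 0.14. The 3 KO spleen libraries lay between them, at -0.04 to 0.07. Among tumor libraries, library 1 of WT tumor was highest for 39 members, and the median deviations ran from -0.05 to 0.08.

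**Figure D3:**
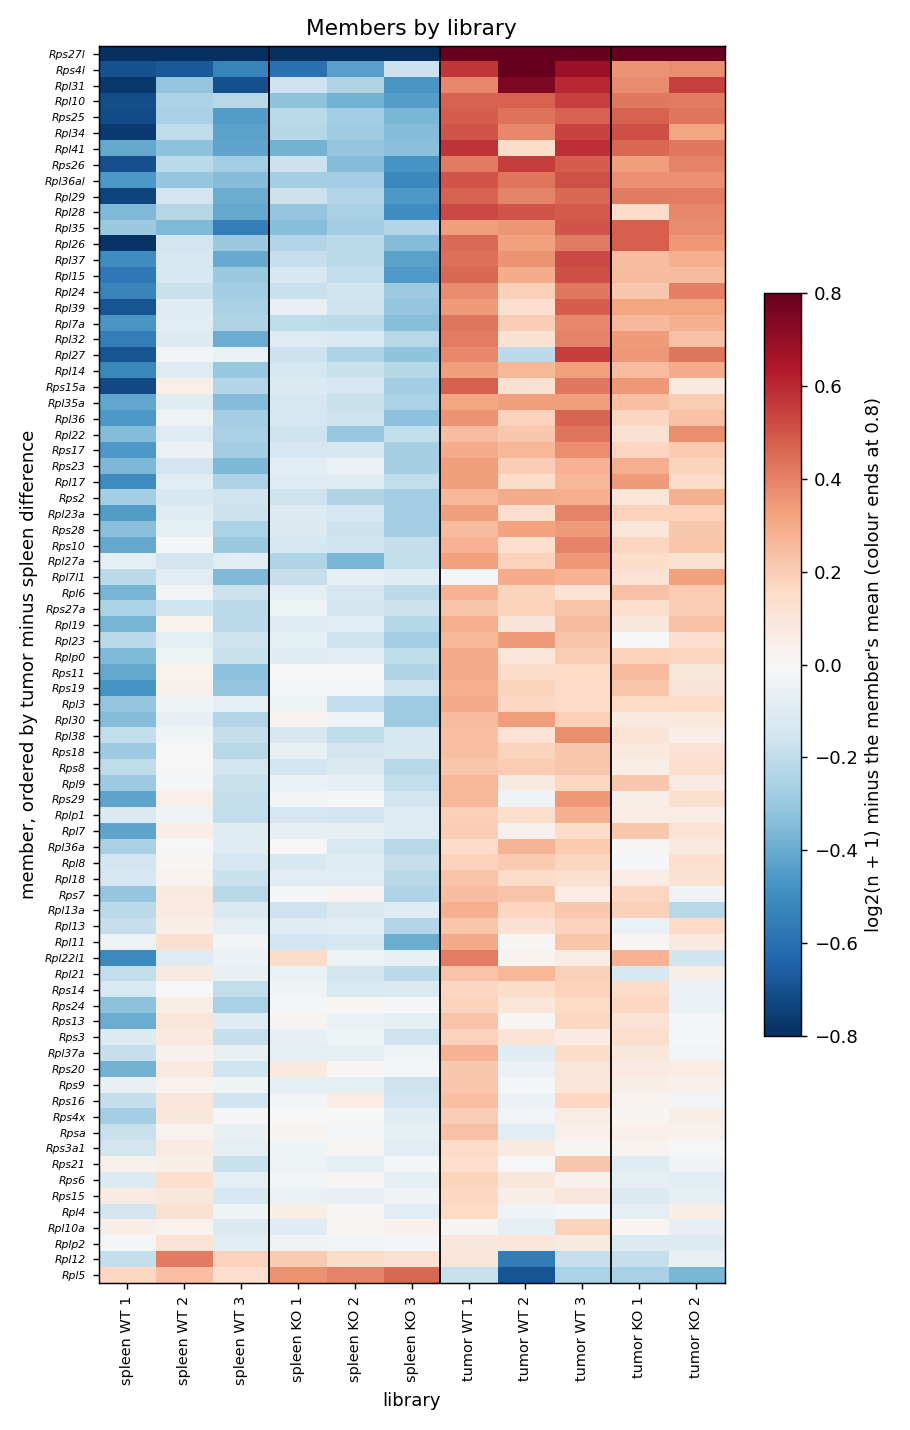
Value of 78 of the 80 members in each library in log2(n + 1), minus that member's mean over the 11 libraries, with members ordered by their tumor minus spleen difference; vertical lines part the 4 groups and the colour ends at 0.8. The WT spleen 1 column holds the lowest spleen value of 54 members, and the rows of Rpl12 and Rpl5 run against the rest.

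Only 4 members were called in 1 direction under all 4 scalings (as deposited, equal medians, equal totals and quantile). Rps27l and Rps4l were higher, where 23.5% of all genes were, and Rpl5 and Rpl12 were lower, where 35.7% were. Rps27l, a paralog of Rps27 known as a target of p53, had spleen values from 4.64 through a median of 4.87 to 5.14. In the tumor libraries it was 6.97, 7.38 and 7.51 in WT and 7.48 and 7.27 in KO. All tumor libraries lay over 1 log2 unit above all spleen libraries, a difference of 2.44 (SE 0.11, adjusted p = 8.72e-10 by limma), or 5.43 times on the n + 1 scale. It was between 1.82 and 2.44 under the 4 scalings. Rps27 itself is not among the rows used here, but Rps27rt, which shares 91.6% of its 31-base words with Rps27, differed by -0.14 (SE 0.10, adjusted p = 0.19 by limma). Rps27l lies on chromosome 9 at 66946086 to 66949516 (GRCm38, GENCODE M21, plus strand), where no exon of another gene overlaps its own.

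Rps4l is annotated as a transcribed processed pseudogene on chromosome 6 (148354656 to 148355598), and its values were close to the floor. They ran from 0.65 through 0.78 to 1.18 in spleen and were 1.92, 2.47 and 2.03 in WT tumor and 1.71 and 1.72 in KO tumor. Tumor and spleen did not overlap, and the difference was 1.14 (SE 0.15, adjusted p = 1.20e-05 by limma). It depended on the pseudocount, at 1.79 with 0.1 and 0.46 with 5.

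Where a paralog and its parent gene were both listed, their log ratio was compared within each library. A scale factor of the library leaves this ratio nearly as it is for genes far from the floor, but not for Rps4l, and quantile normalization can change it for any pair. Of 4 pairs, 2 ratios differed between the tissues by an exact two-sided permutation test, with adjustment over the 4 pairs. Rpl36al minus Rpl36a, a pair that encodes nearly the same large-subunit protein, averaged -1.35 ± 0.062 over the spleen libraries (SD, n = 6) and -0.81 ± 0.0835 over the tumor libraries (SD, n = 5). The difference of 0.54 had an exact p of 0.00433 (adjusted 0.00866), the smallest p that 6 against 5 allows. In single values, Rpl36al was 7.25 to 7.49 in spleen and 8.12 to 8.27 in tumor, while Rpl36a was 8.60 to 8.87 and 8.87 to 9.13. Of the base words of Rpl36a, 87.6% also occur in other annotated genes, and of those of Rpl36al 23.4% do. An exon of Gm49383 overlaps that of Rpl36al on the same strand. The part of read assignment in the Rpl36al to Rpl36a ratio was not tested. Rps4l minus Rps4x rose by 1.03, also with an exact p of 0.00433 (adjusted 0.00866). The size of that rise rests on Rps4l near the floor, at 1.68 with a pseudocount of 0.1, 0.35 with 5, 1.29 with equal totals and 1.72 after quantile normalization. Rpl22l1 minus Rpl22 differed by -0.28 (exact p = 0.0952, adjusted 0.127). Rpl7l1 minus Rpl7 differed by 0.11 (exact p = 0.333), but by 0.54 after quantile normalization (exact p = 0.00433, adjusted 0.00577). Alone, Rpl7l1 was called higher (0.37) as deposited but was at -0.24 with equal totals. Rpl22l1 was not called, at 0.22.

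**Figure D4:**
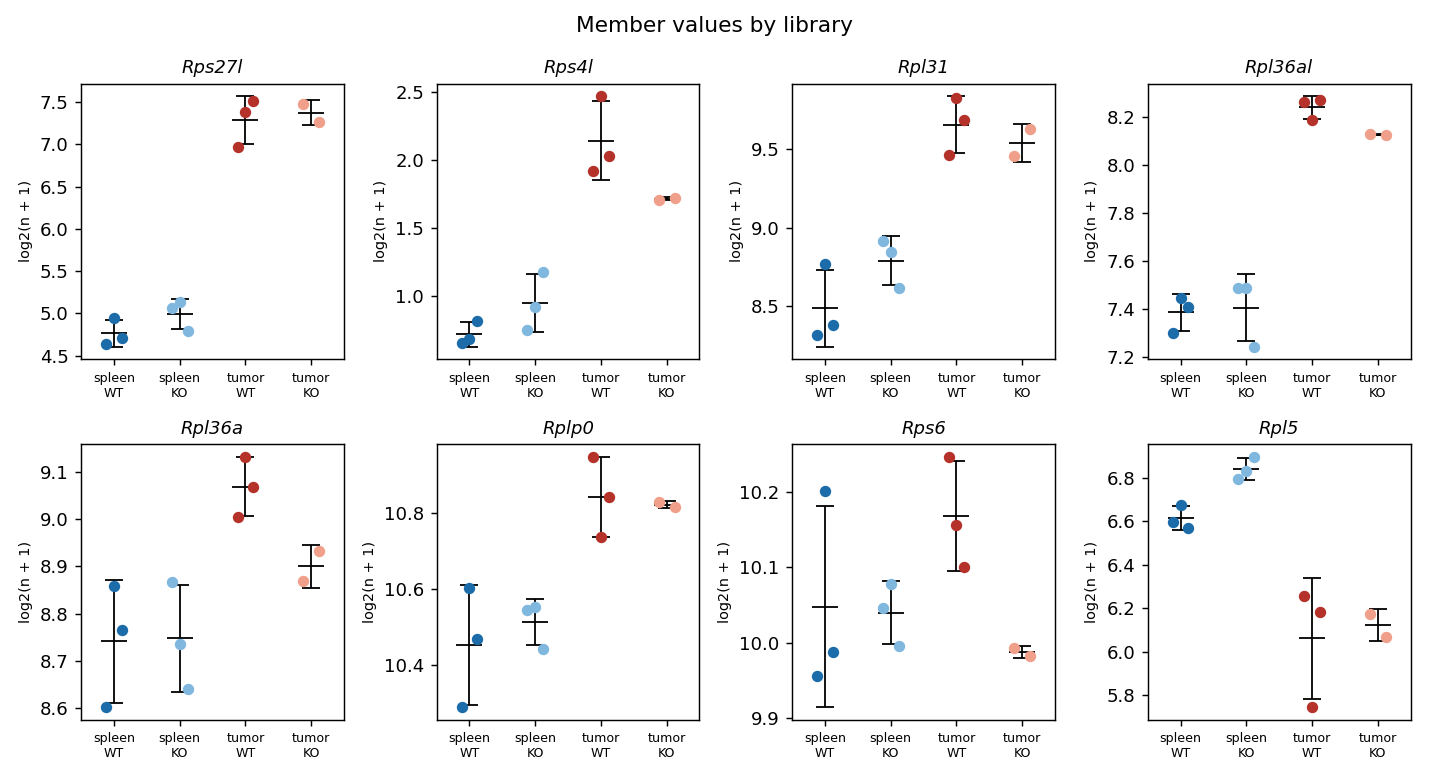
Values of 8 members by library in log2(n + 1), with the mean and SD of each group as bars (3 libraries each, 2 for KO tumor); the vertical axes differ and do not start at 0. Rps27l, Rps4l, Rpl31 and Rpl36al separate tumor from spleen upward and Rpl5 downward, while Rps6 overlaps. With equal totals Rpl36a and Rplp0 are below 0, and after quantile normalization Rpl36al is at -0.01.

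Beyond these, the largest gains were of Rpl31, Rpl10, Rps25, Rpl34, Rpl41 and Rps26. Rpl31, which sits beside the opening where the new protein leaves the ribosome, had spleen values from 8.31 through 8.69 to 8.91. It was 9.47, 9.82 and 9.68 in WT tumor and 9.46 and 9.63 in KO tumor, with no overlap. Its difference was 0.97 (SE 0.12, adjusted p = 5.57e-06 by limma). An exon of Tbc1d8 overlaps its own on the other strand, and the sources used here do not say whether counting used strand.

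Rpl10, one of the last proteins to join the large subunit, differed by 0.85, with spleen values of 7.96 to 8.45 and tumor values of 9.08 to 9.22. Rps25, known for its role in translation from internal entry sites, differed by 0.84. Its tumor values lay within 9.35 to 9.41, all above the spleen range of 8.21 to 8.71. Rpl34 differed by 0.83, Rpl41, the smallest ribosomal protein, by 0.80, and Rps26 by 0.80. With equal totals these 6 stayed positive, at 0.17 to 0.35. After quantile normalization Rpl10 and Rps25 were at 0.00 and -0.02 and the other 4 at 0.03 to 0.15.

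Around the exit of the peptide tunnel, 8 of 8 members rose as deposited (median 0.54), where 62 of all 80 members and 43.1% of all genes did. Rpl31, Rpl35 (0.75) and Rpl26 (0.74) led, followed by Rpl39 (0.58), Rpl22 (0.50), Rpl17 (0.46), Rpl23a (0.45) and Rpl19 (0.36). Rpl35 and Rpl26, which frame the exit, did not overlap between tissues, with tumor values of 9.40 to 9.56 and 10.36 to 10.51 above spleen values of 8.51 to 8.83 and 9.24 to 9.88. With equal totals 1 of the 8 was called higher and 1 lower (median -0.08; 23.6% and 56.3% of all genes). After quantile normalization 5 were lower, as were 45.8% of all genes.

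The P stalk, which brings elongation factors to the ribosome, was uneven. Rplp0, its base, was 10.29 to 10.60 in spleen and 10.74 to 10.95 in tumor, a rise of 0.35. Rplp1 rose by 0.27, but its partner Rplp2 was at 0.01 (SE 0.07, adjusted p = 0.87 by limma), with tumor values of 10.40 to 10.61 inside the spleen range of 10.43 to 10.63 or just below it. Rpl12, beside the base, was called lower. With equal totals or quantile normalization all 4 members of the stalk were called lower. So were 47 and 63 of all 80 members, and 56.3% and 45.8% of all genes.

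On the small subunit, Rps26, Rps28 (0.45) and Rps14 (0.22), at the messenger RNA exit, rose as deposited. At the entry channel, Rps2 (0.45) and Rps3 (0.18) rose and Rps9 was at 0.14 (adjusted p = 0.062 by limma). In the beak of the head, Rps10 (0.44) and Rps27a (0.36), which is made as a fusion to ubiquitin, rose. Rps6, the substrate of the S6 kinases, was 9.96 to 10.20 in spleen and 9.98 to 10.25 in tumor and differed by 0.05 (SE 0.07, adjusted p = 0.52 by limma). Rpsa, also known as the laminin receptor, was at 0.10 (adjusted p = 0.18 by limma). With equal totals all of these but Rps26 were below 0.

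The members did not all differ by the same amount. With each library set to the median of the members, 21 members were higher in tumor and 22 lower, and 37 did not pass (28.2% of all genes higher, 49.9% lower on this scale). Such a scale itself places members on both sides, so the balance of these counts is not a result. Of the 49 large-subunit genes, 17 were higher and 8 lower. Of the 31 small-subunit genes, 4 were higher and 14 lower. The small-subunit genes that were higher were Rps27l, Rps4l, Rps25 and Rps26. As deposited, the median difference was 0.37 for the large and 0.28 for the small subunit. Across the 80 members, the difference had a Spearman correlation of -0.16 with transcript length and -0.23 with level. These are descriptions across genes of the same libraries, which are not independent replicates.

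Members with the ETS core had a median difference of 0.71 as deposited (0.05 to 2.44), and those without it 0.35. Over all tested genes the medians were 0.05 with the core and 0.11 without it. Members with the pyrimidine run at the annotated start had a median of 0.48, and those without it there 0.35, against 0.09 and 0.10 over all tested genes. The second group includes members such as Rpl12, whose run begins just beside that start. Rps6 carries both motifs and was at the low end, and Rps27l carries the ETS core and was at the high end. These values were not tested.

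Both falls belonged to members that share their sequence with a more abundant near copy. Rpl5 and Rpl11 carry the 5S ribosomal RNA into the large subunit and, when unassembled, bind MDM2 and so stabilise p53. Rpl5 had spleen values from 6.57 through 6.74 to 6.90. It was 6.26, 5.74 and 6.18 in WT tumor and 6.17 and 6.07 in KO tumor, so that no library overlapped. It fell by 0.64 on the log2 scale (SE 0.09, adjusted p = 3.57e-05 by limma). The processed pseudogene Gm15500 on chromosome 7 (114705217 to 114706235, minus strand) shares 100% of its 31-base words with Rpl5, and was 9.74 to 10.12 in spleen and 10.07 to 10.19 in tumor. This copy held 90.5% of the summed n of the pair in spleen and 94.3% in tumor. Summed with it as deposited, Rpl5 was at 0.08 (SE 0.07, adjusted p = 0.32 by limma). Sums with near copies were not run under the other scalings. Rpl5 exons also overlap Snord21 on the same strand and Fam69a on the other. Its partner Rpl11 overlapped, with 8.14 to 8.67 in spleen and 8.55 to 8.85 in tumor, and rose by 0.23 (adjusted p = 0.034 by limma); with equal totals it was at -0.40.

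Rpl12 ran from 6.91 through a median of 7.27 to 7.52 in spleen and was 7.20, 6.54 and 6.92 in WT tumor and 6.92 and 7.05 in KO tumor. The tissues overlapped, and the fall was 0.33 on the log2 scale with an adjusted p of 0.023 by limma (a difference of -0.33, SE 0.12). Without library 2 of WT tumor the difference was -0.23 (adjusted p = 0.058 by limma) and without library 2 of WT spleen it was -0.27 (adjusted p = 0.051 by limma). Its near copy Gm10275 on chromosome 10 (29698746 to 29699380) shares 100% of its words, and the copies held 88.5% of the summed n in spleen. Summed with them as deposited, Rpl12 was at -0.00 (SE 0.09, adjusted p = 0.99 by limma).

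**Figure D5:**
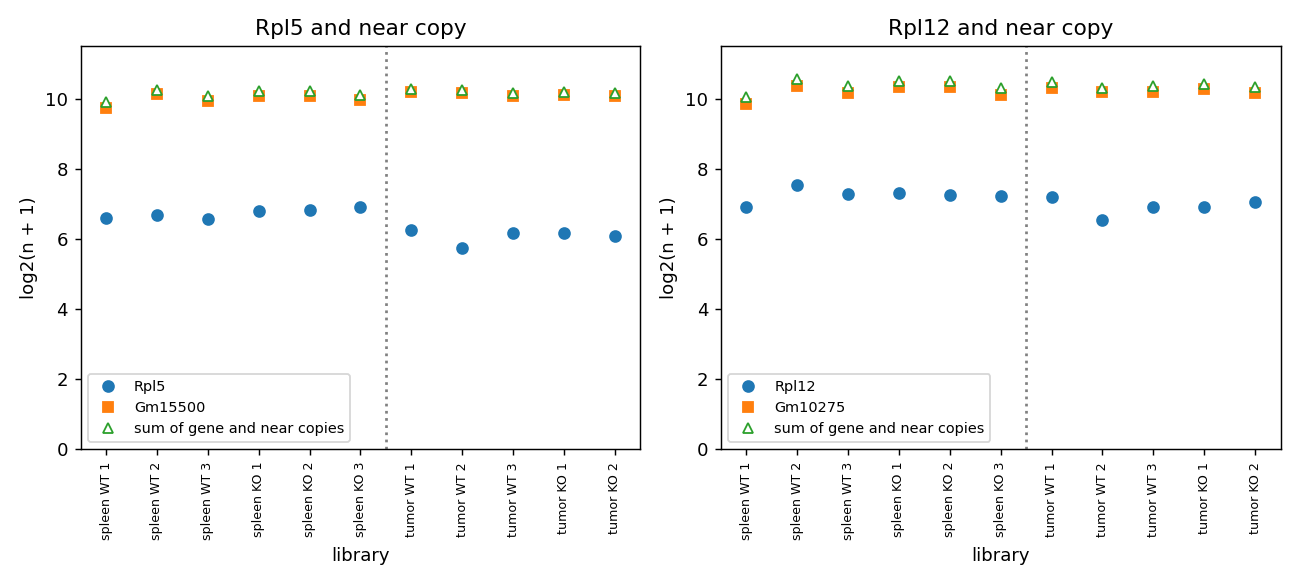
Values of Rpl5 and Rpl12, of their near copies Gm15500 and Gm10275, and of the sum of the gene and its near copies, in log2(n + 1) for each library; the dotted line parts spleen from tumor. The genes lie near 6 to 7.5 and lower in tumor, while the copies and the sums stay near 10 in both tissues.

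Near copies were common, so single members are uncertain where reads could have been split. For 41 of 80 members, 64 other rows shared at least 50% of their 31-base words with the member. In 10 members these copies held over 50% of the summed n in spleen, among them Rpl5, Rpl12, Rpl27, Rps23, Rpl27a, Rpl37, Rpl10, Rpl35 and Rpl21. Among copies of members that rose, Rpl31-ps8 was at 1.04 and Rpl10-ps3 at 1.05 as deposited. Rps12-ps3, which shares 100% of its words with the unlisted Rps12, was at 0.70. With copies added to their member on the deposited scale only, 63 members were higher and 0 lower by limma (43.1% and 36% of all genes). On that scale 65 members, 81.2%, had an unadjusted p below 0.05 in either direction, as 80.4% of all genes did. The member median was again 0.35.

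Within WT mice 57 members were higher in tumor and 1 lower (39.2% and 31.3% of all genes), with a median difference of 0.39. Within KO mice 38 were higher and 1 lower (36.2% and 29.5% of all genes), with a median of 0.27. Without library 3 of KO spleen, 23 of 80 members were higher in KO, a smaller share than the 4618 of 13897 genes. Leaving out library 1 or 2 of KO tumor leaves 1 library there. The member medians were then 0.30 and 0.28 (0.10 and 0.05 over all genes). In both genotypes the lower member was Rpl5. With equal totals, 6 were higher and 29 lower in WT (21.7% and 50.4% of all genes), and 1 and 43 in KO (18.7% and 49.7%). As deposited, the KO difference minus the WT difference was below 0 for 74 of 80 members, with a median of -0.15 against -0.02 over all genes. This leaned on the WT spleen libraries and on the scaling. The median was -0.08, with 15 members above 0, without library 1 of WT spleen, and -0.22 without library 2. After quantile normalization it was -0.05, with 26 members above 0.

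The test of that interaction called 0 members and 0% of all genes by limma. At an unadjusted p below 0.05 it had 1 member, Rps4l (interaction -0.66, SE 0.26, unadjusted p = 0.027, adjusted p = 0.9997 by limma), and 2.76% of all genes. Next in that order were Rpl31 at -0.42 and Rpl30 at -0.30, and on the positive side Rpl27 at 0.13, Rpl11 at 0.12 and Rpl12 at 0.08.

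KO against WT likewise gave 0 called members in spleen (0% of all genes) and 0 in tumor (0.0072% of all genes, a single gene). In spleen the member median was 0.05, and 1 member, 1.25%, had an unadjusted p below 0.05, as 2.02% of all genes did. The median was -0.02, with 26 members above 0, without library 1 of WT spleen. Without library 2 of WT spleen it was 0.14. In that run 10 members, 12.5%, had an unadjusted p below 0.05 by limma, against 2.18% of all genes. With all libraries, the member was Rpl11, at 8.5, 8.67 and 8.52 in WT and 8.39, 8.40 and 8.14 in KO, a difference of -0.25 (SE 0.10, unadjusted p = 0.036, adjusted p = 0.9997 by limma). The groups did not overlap, but Rpl11 was picked by its p, and the share of all genes without overlap is not given here. Rpl31 was at 0.30 and Rpl5 at 0.23, with Rps25 at 0.19, Rpl27a at -0.16 and Rps9 at -0.08.

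In tumor the member median was -0.08, and 2 members, 2.5%, had an unadjusted p below 0.05, as 4.56% of all genes did. They were Rpl21 at -0.27 (unadjusted p = 0.026) and Rps4l at -0.43 (unadjusted p = 0.048, both adjusted p = 0.9997 by limma). Rpl21 was 8.76, 8.80 and 8.72 in WT tumor and 8.40 and 8.59 in KO tumor. Rpl28 followed at -0.24, and Rpl27 at 0.14, Rpl12 at 0.10 and Rps27l at 0.08 were on the positive side. With 2 KO tumor libraries, differences of this size could not be told from the spread.

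Other parts of the translation machinery were set beside the members as deposited, when 43.1% of all genes were higher in tumor and 35.9% lower. With equal totals these shares were 23.6% and 56.3%, and after quantile normalization 33.3% and 45.8%. Of 78 mitochondrial ribosomal protein genes, which serve the separate ribosome inside mitochondria, 59 were higher in tumor and 5 lower (median 0.49; 18 and 26 with equal totals). Unlike the cytosolic members after quantile normalization (3 higher, 63 lower), 40 of these were higher and 13 lower. The cytosolic members lay at higher values, with a summed log2 value in spleen of 15.69 to 15.98 against 10.57 to 10.63. Quantile normalization moved high genes further than low ones, as with Eef1a1 (0.36 to -0.67) and Eif2s1 (0.79 to 0.53). The part of level in this contrast and the difference between the lists were not tested. Of 34 translation factors, 29 were higher and 2 lower (median 0.51; 6 and 15 with equal totals), led by Eif4e, the cap-binding protein, at 1.11 and Eif6, which keeps free large subunits apart, at 1.07. The 2 lower were Eif4a2 (-1.28) and Eif4g2 (-0.46). Eef1a1, a TOP gene that delivers transfer RNAs, differed by 0.36, and at -0.27 with equal totals. Fau (0.71), which encodes a ribosomal protein fused to a ubiquitin-like protein, and the ribosome scaffold Rack1 (0.40) were higher, though Rack1 was at -0.23 with equal totals.

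Of 42 ribosome assembly genes, which make and process ribosomal RNA, 9 were higher and 20 lower as deposited (median -0.23; 43.1% and 35.9% of all genes), and with equal totals 0 were higher and 34 lower by limma. The RNA polymerase I subunit Polr1b fell by 1.46 on the log2 scale, Rrp9 fell by 1.06 and Nop56 fell by 1.002. Pes1 (0.87) and Nhp2 (0.79) were higher as deposited. Of 16 genes around mTORC1, MYC and LARP1, 5 were higher and 7 lower (43.1% and 35.9% of all genes), and 2 and 12 with equal totals. Eif4ebp1, a translation repressor that mTORC1 inactivates, was 3.503 higher and Rheb, an activator of mTORC1, 1.45 higher. Of the 7 lower, the largest falls as deposited were Mxd4 (-0.81), Tsc1 (-0.78), Rps6kb1 (-0.74) and Eif4ebp2 (-0.67). Mtor (-0.00), Larp1 (-0.10) and Myc (0.08) did not pass as deposited. Of the snoRNA host genes, Zfas1 alone was listed, at -0.40 (adjusted p = 0.19 by limma).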

How the data were processed

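Single-end RNA-seq reads of 11 Treg libraries were pseudoaligned by the authors with kallisto (version not given in the sources used here) to mm10, processed in sleuth 0.30.0, summed by gene symbol and deposited as log2 values, log2(n + 1), for 14604 genes. Whether sleuth rescaled n, or divided it by transcript length, is not stated. Comparisons of level between genes carry this limit, among them the correlation with level, the shares held by near copies and the levels of lists. No column was left out. Groups came from the labels.

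Genes with a mean of at least 0.5 were kept (13897; 707 removed), and all 80 members were tested. The fit was made in R 4.3.3 by limma 3.58.1, whose moderated variances followed a mean-variance trend. It compared 5 tumor with 6 spleen libraries, then used a mean per tissue and genotype for the other contrasts, with Benjamini-Hochberg adjustment over all genes. Paralog ratios used exact permutation tests (scipy 1.17.1). Differences are on the log2(n + 1) scale, which understates those of low genes such as Rps4l. Near copies were rows whose GENCODE M21 transcripts share at least 50% of their 31-base words with a member. Promoter windows came from RefSeq (GRCm38.p6); 21 members had no entry.

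The members and lists were chosen with earlier results of these data known. The genes named are those of the structural lists, the paralogs and their parents, Rps6, Rpsa, the 8 largest called rises and all called falls, and up to 3 members per direction with the smallest p in each genotype contrast. Other members appear by count, and a few results of single genes are not reported here. For the other lists, genes with the largest called differences and a few fixed genes were named; motif examples and near copies were chosen after their values were seen. Scalings, pseudocounts (0.1 and 5), filters, variance models, corrections, a replicate block and leaving out each library were tried, and sums with near copies, totals without Gm12896 and scaled paralog ratios were added after seeing the data. The fit was tested on simulated data.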

Additional observations from a re-analysis of the deposited data

Results flagged for a closer look

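Dixon's test at 95% was applied to 94 sets of values, each of the named members, paralog ratios and summary values in the 6 spleen or the 5 tumor libraries. A single library stood apart in 7 sets, where chance gives about 1 in 20 (4.7 of 94). In spleen, library 1 of WT was low for Rpl26 (9.24, the others 9.68 to 9.88) and for Rpl7 (9.91, the others 10.23 to 10.38), and this library held the lowest spleen value of 54 members. Library 2 of WT spleen was high for Rplp2 (10.63, the others 10.43 to 10.50). Library 3 of WT spleen was low for Rpl35 (8.51, the others 8.71 to 8.83). In tumor, library 1 of KO was low for Rps2 (10.28, the others 10.46 to 10.49) and library 2 of KO was low for Rps14 (10.53, the others 10.73 to 10.77). Library 2 of WT tumor was low for Rpl27 (6.24, the others 6.79 to 7.0). No cause was tested.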

How the results depend on the processing

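The direction of most members' tissue differences turned on the scaling, which the sources used here leave unstated. With library totals set equal, the differences called or named above as positive became Rplp0 -0.28, Rplp1 -0.36, Rplp2 -0.61, Rpl11 -0.40, Rpl17 -0.17, Rpl19 -0.27, Rpl22 -0.12, Rpl23a -0.18, Rpl39 -0.0455, Rps10 -0.18, Rps27a -0.27, Rps2 -0.17, Rps3 -0.45, Rps9 -0.49, Rps14 -0.41, Rps28 -0.18, Rpl7l1 -0.24, Rpl22l1 -0.40, Rpl7 -0.37, Rpl36a -0.37, Rps4x -0.52, Rps6 -0.58, Rpsa -0.53, Rpl27 -0.0698, Rpl30 -0.29, Rpl27a -0.21 and Rpl21 -0.40. After quantile normalization they became Rplp0 -0.48, Rplp1 -0.71, Rplp2 -0.79, Rpl11 -0.64, Rpl17 -0.20, Rpl19 -0.39, Rpl22 -0.35, Rpl23a -0.19, Rpl35 -0.12, Rpl39 -0.27, Rps10 -0.25, Rps27a -0.39, Rps2 -0.16, Rps3 -0.63, Rps9 -0.53, Rps14 -0.59, Rps28 -0.31, Rpl22l1 -0.56, Rpl36al -0.0077, Rpl7 -0.43, Rpl36a -0.61, Rps4x -0.64, Rps6 -0.63, Rpsa -0.73, Rpl10 -0.000377, Rps25 -0.0231, Rpl30 -0.41, Rpl27a -0.48, Rpl21 -0.63 and Rpl28 -0.0050. With equal medians they became Rplp2 -0.21, Rps3 -0.0404, Rps9 -0.0769, Rps14 -0.0005, Rps4x -0.11, Rps6 -0.17 and Rpsa -0.12. Leaving out 1 library reversed Rplp2 alone (-0.00878 to 0.0425), and adding near copies as deposited reversed Rpl5 (0.0809). The cause was not tested.

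The called members, 62 higher and 2 lower as deposited, were 32 and 5 (37 in all) with equal medians, 3 and 63 after quantile normalization, 4 and 47 when totals were equal, 7 and 53 when they were equal without Gm12896, 21 and 22 centred on the members, 63 and 0 with near copies added, and 12 and 0 (12 in all) with Bonferroni correction, with 66 at an unadjusted p below 0.05. Of 13896 genes, 3421 were higher and 7955 lower with equal totals without Gm12896, and of 13897 genes 3108 and 1943 with Bonferroni correction. The 66 members at an unadjusted p below 0.05 were 82.5% of members, against 80.2% of all genes. In WT the called members were 27 and 2 (29) with equal medians, 2 and 53 after quantile normalization, 6 and 29 (35) when totals were equal and 2 and 0 (2) with Bonferroni correction. Over all genes, WT gave 4385 and 5653 with equal medians, 4181 and 5758 after quantile normalization and 1734 and 715 with Bonferroni correction. In KO the called members were 14 and 2 (16) with equal medians, 2 and 54 after quantile normalization, 1 and 43 when totals were equal and 1 and 0 (1) with Bonferroni correction. Over all genes, KO gave 4089 and 5219 with equal medians, 3865 and 5348 after quantile normalization and 1358 and 499 with Bonferroni correction. Leaving out each library in turn gave 60 to 66 called (58 to 64 higher, 1 to 2 lower). In WT it gave 51 to 66 (49 to 65 higher, 1 to 2 lower) and in KO 24 to 41 (23 to 40 higher, 1 lower). In the runs with the fewest members higher, 5961 and 5800 of 13897 genes were higher, in WT 5157 and 5492, and in KO 4618. In those with the most members higher, 5867 and 5844 genes were higher, in WT 5112 and in KO 4964. The member median was 0.31 to 0.37 without each library, 0.13 with equal medians, -0.38 after quantile normalization, -0.28 with equal totals and -0.28 (-0.2754) without Gm12896 as well. The member share was lower in tumor by 1.31 percentage points (a difference of -1.31; -1.47 to -1.11 without each library, -2.04 without Gm12896 in the total). The interaction and both KO comparisons called 0 members by limma under every setting run. No paralog ratio changed sign, and 1 crossed the threshold, Rpl7l1 minus Rpl7 at 0.54 after quantile normalization (exact permutation, adjusted p = 0.00577). Scalings of the ratios were chosen after seeing the data.

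Same-numbered spleen and tumor libraries did not deviate together (correlations of -0.128 to 0.038), and the labels do not say that a number marks an animal, though spleens came from the tumor-bearing mice. With 2 or 3 libraries in a group, such correlations cannot show whether a number marks an animal. The numbers were not taken as pairs because the labels do not tie them to animals. With a replicate block, 51 members were higher and 1 lower, 43 and 1 in WT and 18 and 1 (19 in all) in KO, and 0 in the interaction and both KO comparisons. Over all genes the block gave 5753 higher and 4759 lower, 5147 and 4094 in WT and 4397 and 3355 in KO. Library 3 of KO spleen has no same-numbered tumor library, so the block takes no tissue difference from it. Leaving out that library without a block left 23 members higher in KO. Depth in reads is unknown, KO tumor has 2 libraries, and the values of Rps4l lie near the floor.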
